A study of Mus musculus with 24 samples.

Results

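Reduced representation bisulfite sequencing (RRBS) fragments that the deposited annotation assigns to a microRNA gene are described here. A fragment was taken when the name of its nearest gene began with Mir and a digit, and the 169 fragments within 5000 bp of the 5′ end of the microRNA gene were kept apart from the 1052 fragments farther away. This gave 1221 of the 65535 fragments in the table, at 65 microRNA genes, and the choice used names and distances only, not methylation values. The table covers chromosomes 1 and 2 and ends within chromosome 3, so microRNA genes elsewhere were not analysed here.

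DNA methylation was profiled in interscapular brown adipose tissue (BAT) of female C57BL/6J mice at postnatal day 12. Dams received olive oil vehicle (VEH) or DDT, an organochlorine insecticide given as its p,p′ and o,p′ isomers mixed in the same oil, by gavage from mid-gestation into the first postnatal week. There were 12 VEH and 12 DDT libraries, each made from BAT pooled over female littermates, so a replicate is a litter and differences between littermates cannot be seen. The comparison asks whether perinatal DDT exposure changed the methylation of infant BAT. No genotype differed between the groups, and all pups came from gavaged dams.

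A microRNA is a short RNA cut by Drosha and Dicer from a hairpin in a longer transcript, and it lowers the output of messenger RNAs that pair with its seed, the bases near its 5′ end. Many microRNA hairpins lie in introns of coding genes and are transcribed with that host, so the control region of a microRNA can be far from the hairpin. Methylation of a CpG island at a start site is usually absent at active and poised genes, whereas gene bodies and intergenic DNA are mostly methylated. In adipose tissue, miR-133 is known to restrain the brown adipocyte programme, and miR-26 and miR-149 have been linked to brown or beige adipocytes. Of the others described below, miR-126 is known from endothelium, miR-1, miR-206 and miR-499 from muscle, and miR-124, miR-137 and miR-219 from the nervous system.

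Of the 65 genes, 54 were found in RefSeq by symbol and 2 by an older name. The following mature microRNAs are from RefSeq on GRCm38.p6, with the seed (bases 2 to 8) in capitals. They are shown because their hairpins lie inside or beside the fragments described below, except miR-3091-3p, which is shown for its seed.
miR-219a-5p: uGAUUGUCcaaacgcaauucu
miR-2861: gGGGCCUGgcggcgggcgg
miR-3091-3p: cGGGCCUGaccagucucaagac
miR-760-3p: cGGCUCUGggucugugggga
miR-375-5p: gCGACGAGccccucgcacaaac
miR-26b-5p: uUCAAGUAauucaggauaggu
miR-126a-3p: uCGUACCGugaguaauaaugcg
miR-149-5p: uCUGGCUCcgugucuucacuccc
miR-10b-5p: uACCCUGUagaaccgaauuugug
miR-499-5p: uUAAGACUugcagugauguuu
miR-298-5p: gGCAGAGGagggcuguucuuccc
Among the matched genes only miR-2861 and miR-3091-3p shared a seed, GGGCCUG. The seed of miR-26b-5p was shared by 2 mouse mature microRNAs in RefSeq, and those of miR-219a-5p, miR-126a-3p, miR-149-5p and miR-499-5p each belonged to 1. The mature miR-2861 sequence holds 3 CpG, miR-219a-5p and miR-760-3p hold 1 each, and miR-26b-5p holds 0. Mir124a-2, Mir124a-3, Mir133a-2, Mir1a-1, Mir3474, Mir446q, Mir5111, Mir5115 and Mir551b are named only.

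The fragments themselves begin 1 base after the first C of an MspI site (CCGG), which held for 100% of the table. The following 7 are shown on the strand of the microRNA gene, 5′ to 3′, with each CpG in capitals. The first 5 overlap a hairpin. Those at Mir219-2, Mir2861 and Mir760 hold the whole of miR-219a-5p, miR-2861 and miR-760-3p as printed above. For Mir375 only miR-375-5p was checked, and it lies outside the fragment. The fragment at Mir5126 had the smallest unadjusted p for DDT against VEH near a microRNA gene, and those at Mir149 and Mir126 were among the 5 smallest far from one.
Mir219-2, chr2:29845633-29845736, minus strand: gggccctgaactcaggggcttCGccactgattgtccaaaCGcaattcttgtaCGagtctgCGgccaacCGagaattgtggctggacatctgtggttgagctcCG
Mir2861, chr2:32712813-32712854, minus strand: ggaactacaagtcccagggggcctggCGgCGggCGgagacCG
Mir760, chr3:122293491-122293649, minus strand: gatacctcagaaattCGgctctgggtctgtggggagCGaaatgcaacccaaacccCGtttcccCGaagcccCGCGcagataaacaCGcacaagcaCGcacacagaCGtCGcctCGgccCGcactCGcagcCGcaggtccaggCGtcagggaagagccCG
Mir375, chr1:74900625-74900693, minus strand: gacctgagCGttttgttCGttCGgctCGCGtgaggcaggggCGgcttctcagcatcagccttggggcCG
Mir5126, chr1:84695901-84695930, plus strand: CGggggCGgggcccaCGgaggctgggctcc
Mir149, chr1:92832127-92832183, plus strand: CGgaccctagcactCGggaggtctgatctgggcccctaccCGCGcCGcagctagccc
Mir126, chr2:26583793-26583826, plus strand: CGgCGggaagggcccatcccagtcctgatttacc
The build is GRCm38, as in the deposited coordinates.

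A methylation level is the percentage of methylated calls among all methylated and unmethylated calls of a fragment in a library, given where there were at least 10 calls. Testing required a level in 8 or more VEH and 8 or more DDT libraries. The table held 20225 such fragments, of which 425 were at microRNA genes (58 genes). Of these, 84 fragments at 27 genes lay near a microRNA gene and 341 at 49 genes lay far from one. The other 85 near and 711 far fragments were not tested, and 33 of the near ones had no level in any library. Library totals ranged from 8371958 to 13768991 calls in VEH and from 9895508 to 14124652 in DDT, and a tested near fragment had a median of 231 calls in a library. A level is taken over every cell in the tissue piece, so a change in the mix of cell types and a change within a cell type cannot be told apart. The label BAT could not be checked by Ucp1, Cidea, Prdm16, Dio2, Elovl3 or Ppargc1a, the defining genes of brown adipocytes, because no fragment was assigned to any of the 6.

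Of the 12 DDT libraries, replicates 4 and 12 had the lowest mean levels over the whole table (16.9% and 28.4%). Replicate 4 also had a level at only 260 of the 425 tested microRNA fragments, where replicate 12 had 393 and the other 22 libraries 357 to 425. Where leaving them out ended a p under 0.05 or moved a group difference printed here for microRNA fragments by over 1.5 times, the value without them is given beside it. Differences listed under other settings in the closing sections are given as they were run.

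**Figure D1:**
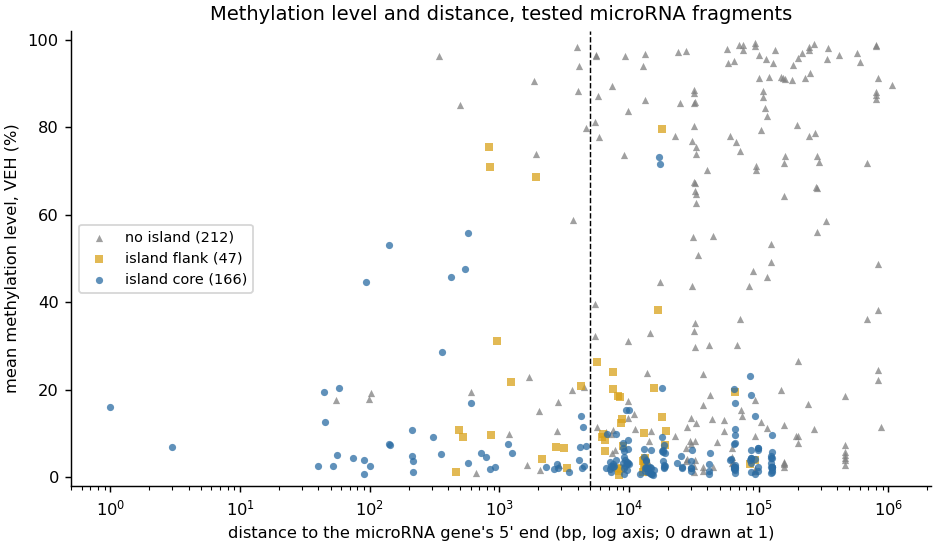
Mean VEH methylation level (%) of each of the 425 tested microRNA fragments against its distance from the 5′ end of the microRNA gene (bp, log axis). Circles are CpG island cores (166), squares island flanks (47) and triangles fragments outside islands (212), and the dashed line is at 5000 bp. No island core lies above 80%, and 7 near and 5 far cores lie from 20% to 80%, while fragments outside islands are spread over the whole axis.

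Fragments near a microRNA gene were mostly unmethylated in VEH. Their median level was 9.42% (quartiles 3.58% and 21.1%), against 9.99% for far microRNA fragments (3.33% and 67.3%) and 11.02% over the table (3.60% and 72.6%). The upper end differed more than the median. Levels over 80% were found at 6 of 84 near fragments (7.14%), 61 of 341 far fragments (17.9%) and 4410 of 20225 in the table (21.8%). A CpG island core held 54.8% of near, 35.2% of far and 33.7% of all tested fragments. By gene, the near median was under 20% at 19 genes, from 20% to 80% at 4 and over 80% at 4. Neighbouring fragments share DNA and libraries, so these counts are descriptions and carry no test.

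The 2 fragments on either side of the 5000 bp limit belonged to Mir1981 (4687 bp, 79.96% in VEH) and Mir1954 (5411 bp, 39.7%).

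Directly upstream, the median level was higher at microRNA genes than at other genes, with no test. Within 500 bp upstream, the 18 tested microRNA fragments had a median VEH level of 8.47% and the 1502 other upstream fragments one of 4.12%. A protein-coding start site lay within 1000 bp of 50% of the former and 98.5% of the latter. From 500 to 2000 bp the medians were 13.4% (24 fragments) and 7.33% (475), and from 2000 to 5000 bp they were 6.93% (29) and 11.53% (345). Farther out the medians were lower at microRNA genes, with 7.41% against 17.4% from 5000 to 50000 bp, 10.8% against 48.2% from 50000 to 200000 bp and 71.9% against 84.4% beyond.

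A smaller share of distant fragments than of the table lay at the start of a coding gene. Of the 341 far fragments, 145 lay within 1000 bp of a coding start (42.5%, against 55.2% of the table). These had a median of 3.803% in VEH, and the other 196 had a median of 40.9%. The corresponding medians over the table were 4.37% and 74.0%. Of the 65 microRNA genes, 31 lay inside a coding gene on the same strand in GENCODE M21.

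Inside CpG islands, the near fragments held a group at intermediate levels that is rare in the table. Levels from 20% to 80% were found at 7 of 46 near island cores (15.2%) and at 129 of 6812 island cores in the table (1.89%). These 7 belonged to Mir219-2 (5) and Mir1905 (2). The median of near island cores was 5.41%, and that of all island cores 3.70%.

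**Figure D2:**
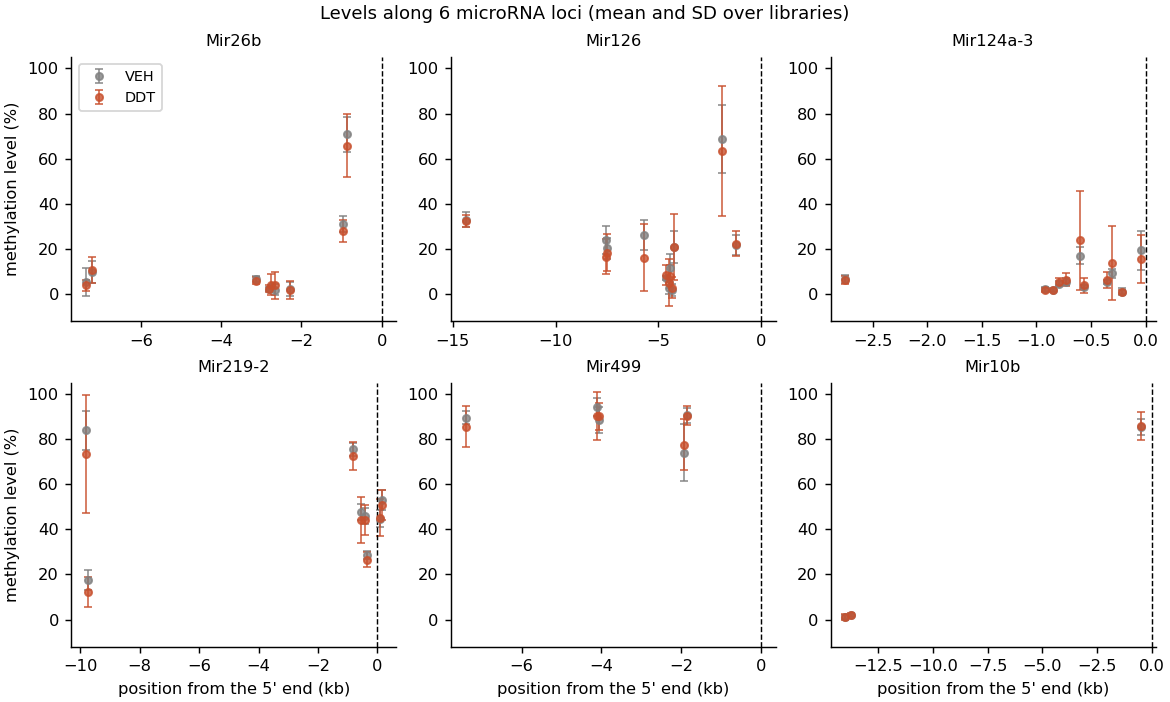
Methylation level (%) against position from the 5′ end of the microRNA gene (kb, negative upstream) for tested fragments within 15 kb of 6 genes; points are group means and bars SDs over libraries, grey for VEH and red for DDT. Mir26b and Mir126 are low at an island of the host gene, with higher levels downstream of it, Mir124a-3 is low throughout, Mir219-2 intermediate and Mir499 high.

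The nervous system microRNA genes did not share a level. Mir219-2, an intergenic gene whose product is known from oligodendrocytes, had 6 near fragments, and 5 of them, all in the island core, lay between 28.6% ± 1.89 (SD, n = 12) and 53.0% ± 4.58 (SD, n = 12) in VEH. The fragment shown above, which holds 95 bases of the hairpin and all of miR-219a-5p, ranged in VEH from 39.9% through a median of 44.0% to 52.1%. All 12 VEH libraries thus lay in a narrow intermediate band. An island shore fragment 835 bp upstream stood at 75.4% ± 3.02 (SD, n = 12).

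Mir124a-3, which encodes the neuronal miR-124, had 11 tested near fragments, 10 of them in one island core. Their VEH levels ran from 1.16% ± 1.53 (SD, n = 12) to 19.4% ± 8.61 (SD, n = 11), and the latter, 44 bp from the 5′ end, was the highest of them. Mir124a-2, a second copy of the gene on chromosome 3, had 3 near fragments outside any annotated island at 0.928%, 9.87% and 19.4%, and 11 far fragments with a median of 87.5%. Both copies were thus low close to the hairpin. Mir137, a further neuronal gene, stood at 2.18% ± 3.96 (SD, n = 10) 3304 bp upstream, and Mir129-2 at 4.09% ± 0.658 (SD, n = 12) 2122 bp upstream.

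The muscle microRNA genes also ranged from low to high. Mir499, in an intron of the myosin gene Myh7b, had 4 near fragments from 74.0% ± 12.5 (SD, n = 10) to 94.1% ± 3.97 (SD, n = 11). This gene was named after its values were seen. Mir1a-1, expressed in heart and skeletal muscle, lay much lower at 2.87% ± 1.05, 17.3% ± 4.52 and 19.8% ± 3.14 (SD, n = 12 each), none of them in an island. Mir133a-2 and Mir206, also muscle genes, had tested far fragments only, at 10.8% to 81.1% (3 fragments) and 7.89% to 94.7% (9 fragments). Fragments assigned to Mir133a-2 lay up to 9144 bp away and those assigned to Mir206 up to 1207847 bp. Such distant levels need not be those of the microRNA gene itself.

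At Mir26b, in an intron of the phosphatase gene Ctdsp1, methylation rose from the host promoter towards the hairpin. The 4 tested fragments in the Ctdsp1 island core, 2278 to 2811 bp upstream, lay from 1.88% to 2.99% in VEH. Levels were 31.1% ± 3.40 (SD, n = 12) at 960 bp and 70.8% ± 7.79 (SD, n = 12) at 852 bp. The fragment over the hairpin, with both mature sequences inside it, had too few libraries to be tested and stood at 94.4% in the 7 VEH libraries with a level.

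Mir126, in the endothelial gene Egfl7, was low at an island of its host and did not rise steadily towards the hairpin. Its 4 tested island core fragments 4344 to 4627 bp upstream ranged from 2.02% to 11.45%, followed by 20.9% ± 7.17 (SD, n = 12) at 4266 bp, 68.8% ± 15.1 (SD, n = 10) at 1914 bp and 21.7% ± 4.49 (SD, n = 12) at 1227 bp. Each of these lies in the host gene, so they are levels of Egfl7 as much as of Mir126.

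Mir10b, annotated in introns of the developmental genes Hoxd3 and Hoxd4, was methylated at its only tested near fragment, 498 bp upstream, at 85.2% ± 3.53 (SD, n = 12), while its 2 far fragments stood at 1.11% and 2.16%. Mir298, in the imprinted Gnas region, stood at 58.9% ± 2.59 (SD, n = 12) near the gene. Mir147, within the gene AA467197, was at 10.6% ± 2.0 (SD, n = 12). At the other end of the scale, Mir3474 (98.4% ± 1.24) and Mir5115 (96.3% ± 2.56) were almost fully methylated (SD, n = 12 each).

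**Figure D3:**
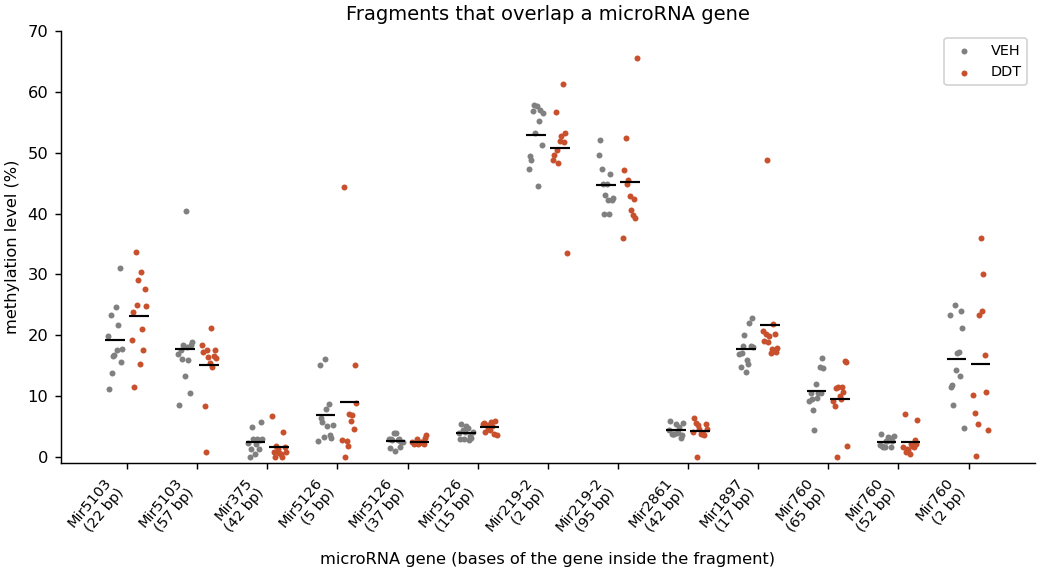
Methylation level (%) in each library of the 13 tested fragments that overlap a microRNA gene, grey for VEH and red for DDT, with black bars at the group means; the number of hairpin bases in the fragment is given below each. Fragments at Mir219-2 stand between 33.6% and 65.6%, all others below 50%, and the 2 groups overlap at every fragment.

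The hairpin itself was covered at 20 genes by 26 fragments, of which 13 at 7 genes were tested. Outside Mir219-2 these were low. At Mir375, a gene of pancreatic islets and endocrine cells, the fragment over 42 bases of the hairpin ranged from 0% through 2.48% to 5.76% in VEH and from 0% through 0.800% to 6.61% in DDT. At Mir2861, in an exon of Cdk9, the fragment that holds the mature sequence and its 3 CpG ranged from 3.01% through 3.90% to 5.93% in VEH and from 0% through 4.24% to 6.39% in DDT. The groups overlapped over most of their range at both genes.

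The 3 fragments at Mir760 had mean VEH levels of 2.46%, 10.8% and 16%. The 1 that holds miR-760-3p ranged from 4.41% through 10.4% to 16.2% in VEH and from 0% through 10.3% to 15.8% in DDT. Mir5103 had 17.7% and 19.1%, Mir1897, which lies in Sox2ot, 17.8%, and Mir5126, which lies at the start of the Notch ligand gene Dner, 2.55% to 6.86%. At Mir1897 DDT replicate 4 stood at 48.8%, the highest of the 24 libraries, and the DDT mean was 21.6% ± 8.68 (SD, n = 12) with it. Without replicate 4 the difference from VEH fell from 3.85 to 1.38 percentage points.

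In the comparison of DDT with VEH by an ANOVA F test, no microRNA fragment passed an adjusted p of 0.05, and nor did any other in the table (0 of 20225, 0.0%). Adjusted values for microRNA fragments began at 0.869. Unadjusted p-values under 0.05 were found for 14 of 425 microRNA fragments (3.29%), where the background was 4.18% (845 of 20225). Near a microRNA gene 1 of 84 passed (1.19%) and far from one 13 of 341 (3.81%). The share of microRNA fragments was thus not above the background. Of the 14, 11 were lower in DDT (2.59% of 425, against 2.93% in the table) and 3 were higher (0.706%, against 1.25%). Leaving out DDT replicate 4 kept the total at 14 (3.33%, against 4.24% in the table) but gave 8 lower and 6 higher, with 3 near a microRNA gene. Fragments with a level in all 24 libraries gave 10 of 215 (4.65%, against 4.24% in the table), 10 lower and 0 higher. Of the 14 fragments reported, 6 also had an unadjusted p under 0.05 without replicates 4 and 12, and all 14 kept their direction. The 14 were picked by p in these same data, so keeping the direction is no test of it. The 6 were at Mir149, Mir488, Mir1981, Mir5129, Mir670 and Mir5126. At Mir670 neither replicate had a level, so its p could not change. Replicate 4 had no level at Mir488 and Mir5126, so only leaving out replicate 12 could change their p. Limma on log ratios of calls gave 12 at the threshold of 0.05 (2.82%, against 3.51% in the table), 1 of them near. Quasi-binomial regression gave 24 (5.65%, against 7.72% in the table), 7 of them near. Both gave 0 after adjustment. Lower DDT means were found at 239 of 425 microRNA fragments (56.2%) and at 56.9% of the table.

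**Figure D4:**
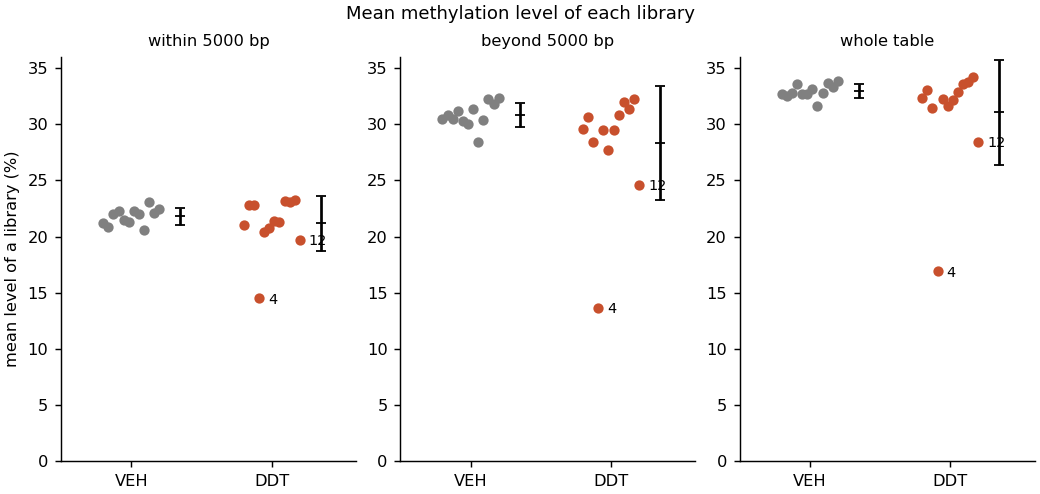
Mean methylation level (%) of each library over tested near microRNA fragments, far microRNA fragments and the whole table; points are libraries, black bars are the group mean and SD over 12 libraries, and DDT replicates 4 and 12 are numbered. Both lie below the other 10 DDT libraries in each panel, and the rest of the groups overlap.

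Averaged over near fragments, the VEH libraries ranged from 20.6% through 21.97% to 23.0% and the DDT libraries from 14.5% through 21.3% to 23.3%. Replicate 4 (14.5%) and replicate 12 (19.7%) were the 2 lowest DDT libraries, and the other 10 overlapped VEH. The means were 21.8% ± 0.729 (SD, n = 12) and 21.2% ± 2.43 (SD, n = 12), a difference of -0.614 percentage points. Leaving out replicates 4 and 12 over the same fragments gave 21.99% ± 1.12 in DDT and a difference of 0.199. The difference was smaller than the spread of libraries in either case.

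Far fragments averaged 30.8% ± 1.08 in VEH and 28.3% ± 5.08 in DDT (SD, n = 12 each), a difference of -2.49 percentage points, of which -0.651 remained without both replicates. Replicate 4 had 13.6% and replicate 12 had 24.6%. The table as a whole moved with them, from 33.0% ± 0.616 in VEH to 31.1% ± 4.71 in DDT, and the difference of -1.90 percentage points was -0.217 without the 2 replicates. Restricted to fragments measured in each of the 24 libraries, the near means were 20.1% ± 0.655 and 20.3% ± 1.07 (38 fragments), and the far means 16.98% ± 0.734 and 16.2% ± 1.73 (177 fragments). Without replicates 4 and 12 the near difference went from 0.119 to 0.240 percentage points and the far one from -0.823 to -0.187. The order of near and far also turned with the restriction to these fragments. Near was below far in 23 of 24 libraries over all tested fragments and in 0 of 24 over these.

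The near fragment with an unadjusted p under 0.05 lay on the Mir5126 hairpin (15 bases of it), in the island at the Dner start. It ranged from 2.68% through 3.95% to 5.31% in VEH and from 3.57% through 5.09% to 5.85% in DDT. Of the 11 DDT libraries with a level, 9 lay above the VEH median, and the ranges overlapped. The means were 3.86% ± 0.890 (SD, n = 12) and 4.82% ± 0.793 (SD, n = 11), with an ANOVA p of 0.0125, a permutation p of 0.0142 and an adjusted p of 0.869. With a minimum of 5 calls, which brings in DDT replicate 4, the difference fell to 0.562 percentage points and p was 0.295. A neighbouring fragment over 37 bases of the same hairpin stood at 2.55% ± 0.894 (SD, n = 12) and 2.49% ± 0.447 (SD, n = 11).

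The next 4 near fragments by p were above 0.05 and are given for their values. They were at Mir219-2, 362 bp upstream (28.6% ± 1.89 in VEH, 26.5% ± 3.32 in DDT, ANOVA p = 0.0781), Mir124a-3, 794 bp upstream (4.53% ± 1.09 and 5.51% ± 1.52, p = 0.0830), Mir26b, 960 bp upstream (31.1% ± 3.40 and 28.0% ± 4.95, p = 0.0911), and Mir5103 on the hairpin (19.1% ± 5.39 and 23.2% ± 6.59, p = 0.111), each an SD with n = 12 in VEH and n = 11 or 12 in DDT.

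Over the 6 near fragments of Mir219-2 together, the library means ranged from 46.4% through 49.1% to 52.1% in VEH and from 44.8% through 46.9% to 49.2% in DDT. The group means were 49.2% ± 1.67 and 47.1% ± 1.503 (SD, n = 12 each), and the difference of -2.03 percentage points was -1.76 without replicates 4 and 12. The ranges overlapped, no fragment of the 6 had an unadjusted p under 0.05, and the mean over them was chosen after the values were seen and was not tested.

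**Figure D5:**
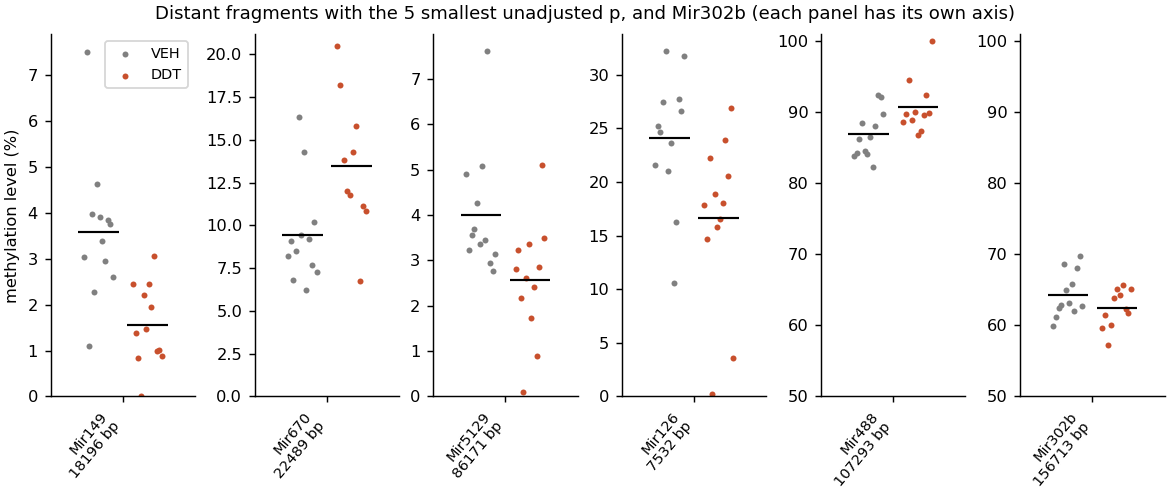
Methylation level (%) in each library of the 5 far fragments with the smallest unadjusted p and of the Mir302b fragment, grey for VEH and red for DDT, black bars at the means, distances below each panel; each panel has its own axis, from 0 except the last 2, which start at 50. The groups overlap in every panel, with all 12 DDT libraries below the VEH median only at Mir149.

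Far from a microRNA gene, the smallest p belonged to the fragment printed above for Mir149, whose host Gpc1 encodes the proteoglycan glypican 1. It lies 18196 bp upstream of the hairpin and 186 bp from the Gpc1 start, in the island core, and so is a fragment of the host promoter. It ranged from 1.09% through 3.57% to 7.52% in VEH and from 0% through 1.43% to 3.06% in DDT. All 12 DDT libraries lay below the VEH median, although the ranges overlapped. The means were 3.58% ± 1.55 and 1.56% ± 0.880 (SD, n = 12 each), a difference of -2.02 percentage points, with an ANOVA p of 0.000728, a permutation p of 0.000240 and an adjusted p of 0.869. Its rank by p was 10 among the 20225 tested fragments, and since it was picked for its p these values describe it only. Without DDT replicate 4 the difference was -1.88 and without replicate 12 it was -1.96.

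The fragment beside it at Mir149, 18001 bp upstream, was also lower in DDT, at 14.4% ± 8.07 against 20.4% ± 5.22 (SD, n = 12 each, ANOVA p = 0.0431, adjusted p = 0.869), and p was 0.108 without replicates 4 and 12. The next ones on either side were not, with DDT means of 6.56% and 8.24% against VEH means of 5.99% and 5.70% at 17960 and 18262 bp.

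At Mir5129, 86171 bp from the hairpin in the island of the transcription factor gene Zeb2, the level ranged from 2.77% through 3.50% to 7.61% in VEH and from 0.0971% through 2.72% to 5.10% in DDT. Of the 12 DDT libraries 11 lay below the VEH median. The means were 3.999% ± 1.35 and 2.57% ± 1.29 (SD, n = 12 each, ANOVA p = 0.0143, adjusted p = 0.869). A fragment of the same island at 86810 bp stood at 18.7% ± 4.48 and 13.8% ± 5.35 (ANOVA p = 0.0238, n = 12 each), and without replicates 4 and 12 the difference fell from -4.89 to -3.01 percentage points with p = 0.0772. The first fragment had a difference of -1.28 without them, with p = 0.0265.

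At Mir126, the fragment 55 bp from an Egfl7 start and 7532 bp from the hairpin ranged from 10.6% through 24.9% to 32.2% in VEH and from 0.231% through 17.9% to 26.8% in DDT. Again 11 of 12 DDT libraries lay below the VEH median. The means were 24.1% ± 6.15 and 16.6% ± 7.72 (SD, n = 12 each, ANOVA p = 0.0157, adjusted p = 0.869), and without replicates 4 and 12 the difference fell from -7.46 to -4.53 percentage points with p = 0.0573.

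In the opposite direction, Mir670 at 22489 bp ranged from 6.25% through 8.78% to 16.3% in VEH and from 6.76% through 12.9% to 20.5% in DDT, and 9 of the 10 DDT libraries with a level lay above the VEH median (9.43% ± 3.004 and 13.5% ± 3.94, SD, n = 12 and n = 10, ANOVA p = 0.0125, adjusted p = 0.869). Mir488, whose fragment lies in its neuronal host Astn1, ranged from 82.3% through 86.4% to 92.5% in VEH and from 86.8% through 89.8% to 100% in DDT, with all 11 DDT libraries above the VEH median (86.9% ± 3.32 and 90.7% ± 3.76, SD, n = 12 and n = 11, ANOVA p = 0.0169, adjusted p = 0.869). At both genes the groups overlapped. The 100% at Mir488 was DDT replicate 12, from 14 calls, and without it the difference fell from 3.83 to 2.91 percentage points (ANOVA p = 0.0299, n = 12 and n = 10). Replicates 4 and 12 had no level at the Mir670 fragment.

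The Mir302b cluster is known from embryonic stem cells. Its fragment with the smallest p, 156713 bp upstream in Ank2, ranged from 59.9% through 63.0% to 69.8% in VEH and from 57.3% through 62.3% to 65.7% in DDT. The groups overlapped, and the means of 64.3% ± 3.17 (SD, n = 12) and 62.4% ± 2.69 (SD, n = 11) had an ANOVA p of 0.137.

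Mir298 lies in the Gnas region, where a fragment can carry methylation on the maternal or the paternal copy only. Its 24 tested far fragments had a median VEH level of 67.5% and a median DDT level of 56.8%, and 20 of the 24 (83.3%, against 56.9% in the table) were lower in DDT. These fragments lie close together and share libraries. Averaged over them, the VEH libraries ranged from 47.5% through 59.3% to 70.9% and the DDT libraries from 35.4% through 54.6% to 64.1%. Replicates 12 (35.4%) and 4 (36.1%) were the lowest, and the rest overlapped VEH. The difference of -6.26 percentage points (59.1% ± 6.12 and 52.8% ± 9.36, SD, n = 12 each) became -2.84 without them. At an unadjusted p under 0.05 there were 2 of the 24 (8.33%, against 4.18% in the table), at 31771 bp (80.4% ± 5.23 and 64.9% ± 24.2, n = 12 each, ANOVA p = 0.0412) and at 32889 bp (74.0% ± 17.1 and 52.5% ± 25.4, n = 12 and n = 10, ANOVA p = 0.0285), and both have an adjusted p of 0.869. The SD in DDT was larger than in VEH at both. Without replicates 4 and 12 the differences fell from -15.5 to -7.17 percentage points and from -21.5 to -16.6, and neither fragment then had a p under 0.05.

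The gene with the most tested far fragments was Mir3089, with 26 that were mostly unmethylated (median 3.88% in VEH, range 0.697% to 30.3%). Its library means were 6.15% ± 0.474 in VEH and 5.88% ± 1.01 in DDT (SD, n = 12 each), a difference of -0.270 percentage points that was 0.0539 without replicates 4 and 12. Of the 26, 1 had an unadjusted p under 0.05, at 62571 bp, and without both replicates its p was 0.136.

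Of 12 microRNA genes chosen for a known role in brown or white adipose tissue, 9 had fragments and 8 had tested ones (45 fragments). At an unadjusted p under 0.05 there were 2 of 45 (4.44%, against 4.18% in the table), both at Mir149. Lower in DDT were 28 of 45 (62.2%, against 56.9% over the table), with a median difference of -0.601 percentage points against -0.163. Mir149 alone held 22 of the 45, all far from its hairpin. The mean difference over these 22 was -4.17 percentage points, and -2.21 without replicates 4 and 12. Of 40 genes of microRNA processing and function, 6 had fragments and 5 had tested ones (21 fragments), of which 2 (9.52%, against 4.18% in the table) had an unadjusted p under 0.05, both at Ddx20, an RNA helicase of microRNA protein complexes. The smaller p was at a fragment of 1.65% ± 0.263 in VEH and 1.12% ± 0.733 in DDT (SD, n = 12 each, ANOVA p = 0.0257, adjusted p = 0.869). Fragments of these processing genes were not examined singly without DDT replicates 4 and 12. The nuclease Xrn2, the editing enzyme Adar, Dis3l2 and Mov10 had 0 at that threshold.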

How the data were processed

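The authors digested BAT DNA with MspI, made RRBS libraries, trimmed reads with Scythe and Sickle and aligned them to GRCm38 with Bismark 0.15.0 and Bowtie2. They deposited methylated and unmethylated call counts per MspI fragment and library, with a nearest gene and a distance for each fragment. The tool that counted calls and the annotation version are not given in the sources used here. The deposited table ends at position 136670346 of chromosome 3.

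Groups came from the sample labels. Levels needed at least 10 calls in a library and at least 8 libraries per group. DDT and VEH levels were compared over all 20225 fragments by ANOVA F tests (SciPy 1.17.1), and p-values were adjusted by Benjamini-Hochberg. Named fragments also had a two-sided permutation test of 100000 resamples. Alternatives were limma 3.58.1 on log2((methylated + 1)/(unmethylated + 1)), quasi-binomial regression, a replicate block, other call minimums, other distance limits and leaving out libraries. The tests were checked on simulated calls. The 2 most alike libraries still differed (mean chi-square per fragment 4.28, for a value near 1 under sampling noise alone), so none was counted as a repeat. Wilson 95% intervals cover counting error only, since PCR reads carried no molecular identifiers.

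The members, gene lists and tests were chosen with earlier results of these data known. Genes were named if a tested fragment overlapped the hairpin, if they belonged to a list of well-studied microRNAs with a tested near fragment, if they had one of the 5 smallest p near or far, if they had the most tested far fragments, or as Mir302b; any other gene was picked once its values were known. Hosts and start sites are from GENCODE M21 and sequences from RefSeq GRCm38.p6.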

Additional observations from a re-analysis of the deposited data

Results flagged for a closer look

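Groups with a level in at most 10 libraries were examined for 1 library far from the rest. There were 24 such groups, at near fragments and at the far Mir670 fragment described above, and 8 stood out. The rule used flags about 1 in 20 by chance only where levels are normally distributed. That rate does not apply here, because every flagged group also held a library with no methylated call. The 8 of 24 are therefore not read as an excess. Each of the 8 rested on few calls, from 10 to 51 in the library concerned. Of the 8, 6 were DDT libraries, but the 24 groups were not counted by treatment. The 6 of 8 is therefore not read as a difference between DDT and VEH. Brackets give 95% Wilson intervals of the library's level, which cover counting error only.

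At Mir5111, 462 bp upstream, DDT replicate 2 stood at 90% (20 calls, 69.9% to 97.2%) where the other DDT libraries reached 27.3% at most, and VEH replicate 9 stood at 10% (10 calls, 1.79% to 40.4%) where the others were at 0%. At Mir124a-2, DDT replicate 10 stood at 50% at 1186 bp (12 calls, 25.4% to 74.6%, others up to 21.2%) and DDT replicate 9 at 10.5% at 663 bp (19 calls, 2.94% to 31.4%, others up to 5.11%). At Mir15b, 4257 bp upstream, DDT replicate 2 stood at 34.6% (26 calls, 19.4% to 53.8%, others up to 9.09%). At Mir26b, 2650 bp upstream, DDT replicate 3 stood at 20% (15 calls, 7.05% to 45.2%, others up to 5.88%). At Mir5103, 1636 bp upstream, DDT replicate 9 stood at 8.33% (12 calls, 1.49% to 35.4%, others up to 4%). At Mir137, 3304 bp upstream, VEH replicate 6 stood at 11.8% (51 calls, 5.51% to 23.4%, others up to 5.17%).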

How the results depend on the processing

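No fragment passed an adjusted p of 0.05 under any of the tests and call minimums run. The count of microRNA fragments at an unadjusted p under 0.05 was 14 as reported. Quasi-binomial regression gave 24 (5.65%) and also raised the share over the table to 7.72%. The count lay from 10 to 16 under the other alternatives. Their shares ran from 2.82% (limma, against 3.51% in the table) to 4.65% (fragments with a level in all libraries, against 4.24%). Without DDT replicate 4, or without replicates 4 and 12 (a choice made after seeing the data), 14 were counted, of which 8 were lower and 6 higher in DDT. The shares were 3.33% and 3.50% of tested microRNA fragments, against 4.24% and 4.51% in the table. The mean VEH level near a microRNA gene was 21.9% without DDT replicate 4 and 20.5% without DDT replicate 12, since leaving out a library changes the fragments tested. It moved to 20.1% over fragments with a level in all 24 libraries, to 21.01% with a limit of 10000 bp and to 15.98% from pooled calls. The far level moved to 31.9% and 29.3% with minimums of 5 and 20 calls, to 16.98% over fragments with a level in all libraries, to 33.4% with the limit of 10000 bp and to 23.2% from pooled calls. DDT minus VEH near a microRNA gene, -0.614 percentage points as reported, ranged from -1.16 (limit of 10000 bp) and -1.08 (minimum of 5 calls) through 0.0185 (without DDT replicate 4) and 0.119 (fragments with a level in all libraries) to 0.175 (without both replicates). The far difference, -2.49 as reported, was negative throughout, from -3.29 (pooled calls) to -0.501 (without both). For the 11 fragments compared one by one, all 88 alternative values kept the direction. The 11 were picked by p in these same data, and some alternatives left a value unchanged, as where replicate 4 had no level. Keeping the direction is therefore no test of it.

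Replicate numbers are shared by the groups, but same-numbered litters have nothing else in common in the labels. Over 10399 fragments the deviations of same-numbered libraries from their group means had correlations from -0.180 to 0.199 (median 0.0110), and 1 of 12 VEH libraries was most like its own number. With the replicate block 13 microRNA fragments (3.06%, against 4.13% in the table) had an unadjusted p under 0.05. Too few libraries with a level left 50.3% of near and 67.59% of far fragments untested.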

Other observations

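Hairpins whose fragments had too few libraries to be tested differed widely in VEH. The fragment over Mir194-1, known from gut and liver, stood at 97.3% ± 4.14 (SD, n = 9), that over Mir149 at 62.1% ± 15.3 (SD, n = 5), that over Mir92b at 18.7% ± 15.4 (SD, n = 6) and that over Mir3960 at 1.48% ± 2.37 (SD, n = 6). In DDT they were 96.4% (n = 4), 55.8% (n = 6), 46.5% ± 34.5 (SD, n = 6) and 0% (n = 4). These 4 genes were picked after their values were known.

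Close neighbours could differ by a wide margin at the same microRNA gene. At Mir26b the fragments at 960 and 852 bp, which adjoin each other, stood at 31.1% and 70.8% in VEH, and at Mir1a-1 the adjoining ones at 2897 and 2853 bp stood at 2.87% and 17.3%.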
